A study of Mus musculus with 20 samples.

Results

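The genes described here are mouse genes listed under a RIKEN clone name beginning with 1700, the prefix given to clones of an adult testis cDNA library. They were chosen by name and level: of 390 such symbols in the deposited expression table, 368 reached at least 1 FPKM in at least 2 of 12 RNA libraries. FPKM is a fragment count scaled to transcript length and to the size of the library, so levels of different genes can be compared. The same level filter kept 12956 of all 23235 genes in the table (55.8%), against 94.4% of the 1700 symbols. Most of the 1700 genes are little studied. Some have since been given names and encode parts of the sperm tail, sperm surface proteins or histone variants, and others give transcripts with no known protein.

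The study compared 2 genotypes, WT and Cxxc1-null, in spermatocytes taken from testes of adult male mice on a C57BL/6 background. Cxxc1 encodes the CpG-binding subunit of the SETD1 complexes, which place methyl groups on lysine 4 of histone H3 at CpG-rich promoters. Cells at the pachytene, diplotene and meiosis II stages were sorted by flow cytometry, and each library was made from 500 cells by Smart-seq2, which primes cDNA synthesis on the poly(A) tail. Each of the 6 groups held 2 libraries. The sources used here do not give what drives the Cxxc1 deletion or which exons it removes. They also do not tell if the 2 libraries of a group stem from different mice, and a p-value therefore reflects the spread between libraries, which may be technical. The 8 H3K4me3 ChIP libraries of the series were not analysed here.

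Male meiosis is a time of very broad transcription. Spermatocytes pair and recombine their chromosomes in pachytene, hold them at crossovers in diplotene, and divide in meiosis I and II to give haploid spermatids. Many genes for the acrosome, the sperm tail and sperm chromatin are first transcribed in late spermatocytes and round spermatids, and the X chromosome, silenced in pachytene and diplotene, is read again at many genes afterwards.

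Cxxc1 itself measured 11.7 and 17.3 FPKM in WT pachytene against 9.19 and 9.57 in Cxxc1-null, 13.7 and 17.6 against 9.57 and 8.29 in diplotene, and 12.5 and 12.8 against 3.10 and 2.02 in meiosis II. Both Cxxc1-null values were under both WT values at every stage, but only the meiosis II difference passed the test (limma adjusted p = 0.472, 0.221 and 0.0024). A list of 12 spermatocyte markers, with Sycp1, Sycp3 and Hspa2 among them, summed to between 7424 and 16545 FPKM in every library. Of the Sertoli marker list 7 genes were tested, and the list summed to between 8.09 and 30.2 FPKM in pachytene and diplotene and to between 232 and 324 in meiosis II. The 12 spermatid markers, protamines and transition proteins among them, summed to between 563 and 2556 FPKM in pachytene and diplotene and to between 3099 and 11961 in meiosis II. Over the 368 genes, replicates correlated at r = 0.950 to 0.984, lowest in Cxxc1-null diplotene, whose replicate 2 had a median level of 15.8 FPKM against 8.07 in replicate 1.

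The 1700 genes took up a larger share of the RNA in meiosis II than at the earlier stages. Their summed FPKM was 3.32% to 3.76% of the total in the 4 pachytene libraries, 3.84% to 4.51% in diplotene and 5.5% to 6.76% in meiosis II, with no overlap between stages. The median member measured 10.9 and 8.27 FPKM in WT pachytene, 6.19 and 8.08 in WT diplotene, and 37.2 and 40.4 in WT meiosis II. In Cxxc1-null the medians were 14.1 and 14.8, then 8.07 and 15.8, then 29.8 and 42.9. Cxxc1-null pachytene lay above WT pachytene, and the 2 genotypes overlapped in the later stages. In bulk libraries fewer cells of a type and less RNA per cell cannot be told apart.

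**Figure D1:**
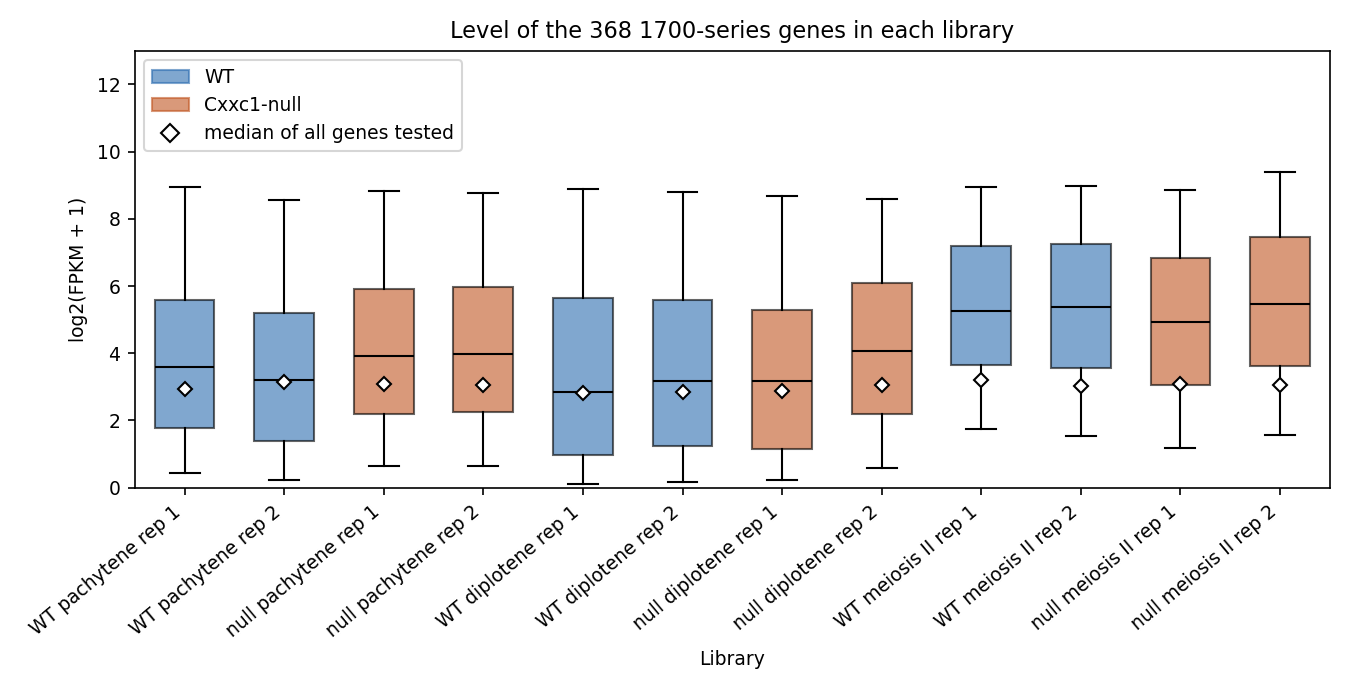
Level of the 368 genes in each of the 12 libraries as log2(FPKM + 1); boxes span the quartiles, the line is the median and whiskers reach the 5th and 95th percentiles. The 4 meiosis II libraries have median levels of 29.8 to 42.9 FPKM, above all 8 earlier libraries, while the diamonds, the medians of all genes tested, stay nearly level.

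Detection was nearly complete in meiosis II. Between 356 and 362 members reached 1 FPKM in a meiosis II library, against 272 to 336 in a pachytene or diplotene library, and 248 reached it in all 12. Through meiosis II libraries alone, 15 members met the filter, so these had to be high there. Counted by genotype, 3 met it through 1 genotype alone, 2 of them through Cxxc1-null and 1 through WT. The 2 reached 1 FPKM in Cxxc1-null meiosis II libraries only and are among the 15. The members nearest the threshold, by second-highest FPKM, were 1700049E15Rik at 1.00, 1700057H15Rik at 1.29 and 1700063A18Rik at 1.37. Just outside it were 1700003M07Rik at 0.966, 1700061I17Rik at 0.910 and 1700027H10Rik at 0.757, and 1 of the 22 symbols that fell short was listed at 0 in every library.

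In RefSeq, 365 of the 368 were found, 260 by symbol and 105 as an older name of a gene with a new symbol. Of these, 187 (51.2%) are annotated as lncRNAs, 166 (45.5%) as protein-coding genes and 11 as transcribed pseudogenes. Another annotated gene overlaps 158 of them (43.3%). The labels describe no strand information, so reads of a member and of a gene it overlaps cannot be told apart, and 1700024F13Rik, whose current symbol has a row of its own in the table, is also uncertain.

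The highest level in every library belonged to 1700025K23Rik, now Fam229b, a protein-coding gene. It measured 3014 and 2069 FPKM in WT pachytene, 2190 and 2335 in diplotene and 1688 and 2466 in meiosis II. Its replicates spread as widely as its stages, and none of the tests of it passed. Next in WT pachytene came the lncRNA 1700008K24Rik at 2530 and 1665 FPKM, Tex30 (1700029F09Rik) at 1801 and 719, and 1700019A02Rik at 1814 and 700.2. Of these, 1700008K24Rik fell from diplotene to meiosis II, from 1733 and 1841 to 773 and 915 FPKM (log2 fold change -1.09 ± 0.27 SE, limma adjusted p = 0.0085). Catsperz (1700019N12Rik), which encodes a subunit of the CatSper calcium channel of the sperm tail, was among the 5 highest at all 3 WT stages. It measured 923 and 894 FPKM in pachytene, 1616 and 1654 in diplotene and 1396 and 1595 in meiosis II, and it rose from pachytene to diplotene (log2 fold change 0.85 ± 0.21 SE, limma adjusted p = 0.016). That call was lost without WT pachytene replicate 1 or either WT diplotene replicate (limma adjusted p up to 0.0865). Stpg4, 1700029F12Rik and 1700020D05Rik completed the 5 highest of WT meiosis II, at 827 to 1031 FPKM.

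From pachytene to diplotene the members moved in both directions and mostly by small amounts. In WT, 36 rose and 27 fell of 368, where the test called 26.5% of all genes, 9.08% higher and 17.4% lower. The median log2 difference was -0.16 over members and -0.11 over all genes, and the sign of the members' median depended on scaling: it was 0.05 both after quantile normalization and after setting libraries to a common median. It was -0.30 without WT pachytene replicate 2 and 0.003 without replicate 1. The share of the called members that rose was 57.1%, and 80% after setting a common median. In Cxxc1-null, 22 rose and 33 fell, where 29.3% of all genes were called, 11.9% higher and 17.4% lower. The WT count of 63 was 26 without WT pachytene replicate 1 and 22 without either WT diplotene replicate, and it was 0 in a fit to the WT pachytene and diplotene libraries alone. The Cxxc1-null count of 55 was 25 or 8 without Cxxc1-null pachytene replicate 1 or 2, and 19 or 86 without Cxxc1-null diplotene replicate 1 or 2. The direction with more calls turned as well. In WT 33 rose and 36 fell without either Cxxc1-null diplotene replicate, and 35 did each without WT pachytene replicate 2. In Cxxc1-null 13 rose and 12 fell without Cxxc1-null pachytene replicate 1, 11 and 8 without Cxxc1-null diplotene replicate 1, and 10 and 76 without its replicate 2. Without both WT pachytene replicate 2 and Cxxc1-null diplotene replicate 2, which stand apart from their replicates, 31 rose and 63 fell in WT and 16 rose and 100 fell in Cxxc1-null.

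Among those that rose in WT were 1700039E15Rik, now Slc6a21, a solute carrier of the neurotransmitter transporter family, and Cfap157 (1700019L03Rik), a protein of the sperm tail's base. Slc6a21 measured 23.7 and 67.3 FPKM in WT pachytene and 149 and 206 in diplotene (log2 fold change 2.1 ± 0.40 SE, limma adjusted p = 0.0055). Cfap157 measured 3.88 and 7.27, then 21 and 20.1 FPKM (1.76 ± 0.29, limma adjusted p = 0.0029). For both, the diplotene libraries lay above both pachytene libraries, and both calls held with each library left out in turn. The pseudogene transcript 1700001J11Rik, which rose by log2 1.80 ± 0.28, also kept its call with each library left out. Log2 differences of 1.99 ± 0.52 for 1700003E16Rik and 1.69 ± 0.46 for 1700018L02Rik lost their calls without WT pachytene replicate 1 or WT diplotene replicate 2 (limma adjusted p up to 0.128 and 0.156), and that of 1700125G22Rik, 1.58 ± 0.32, without WT diplotene replicate 2 (0.0536).

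Among those that fell, the lncRNA 1700027A15Rik went from 131 and 75.5 FPKM in WT pachytene to 11.5 and 19.0 in diplotene and stood at 166 and 222 in meiosis II. The first step was -2.67 ± 0.61 and the second 3.61 ± 0.61 on the log2 scale (limma adjusted p = 0.012 and 0.00087). The protein-coding 1700015G11Rik took the same course, with 66.8 and 33.2, then 6.18 and 8.25, then 91.1 and 123 FPKM, and so did 1700012A03Rik, 1700029J07Rik and the X-linked 1700018G05Rik. Each of these 5 genes rose again into meiosis II, and in each both diplotene libraries lay below all pachytene and meiosis II libraries of WT. Calls of the fall lost without WT pachytene replicate 1 were those of 1700027A15Rik (limma adjusted p = 0.0846), 1700015G11Rik (0.138), 1700018G05Rik and 1700029J07Rik (0.0534). Without WT diplotene replicate 1 the calls for 1700027A15Rik, 1700015G11Rik and 1700018G05Rik (0.13) were lost, and without WT diplotene replicate 2 those of 1700015G11Rik and Tex30 (0.0597). In all, 17 members fell and then rose in WT (4.62%, against 2.96% of all genes).

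The summed level of the spermatid marker list follows the same order of stages. It was 2277 and 2556 FPKM in WT pachytene, 793 and 1240 in diplotene and 8831 and 11961 in meiosis II. From pachytene to diplotene 1 of the 12 markers was higher and 1 lower (Tnp1 and Tekt1 were called), with a median of log2 -0.80. From diplotene to meiosis II all 12 rose. The part of spermatid RNA in the members' course was not tested.

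**Figure D2:**
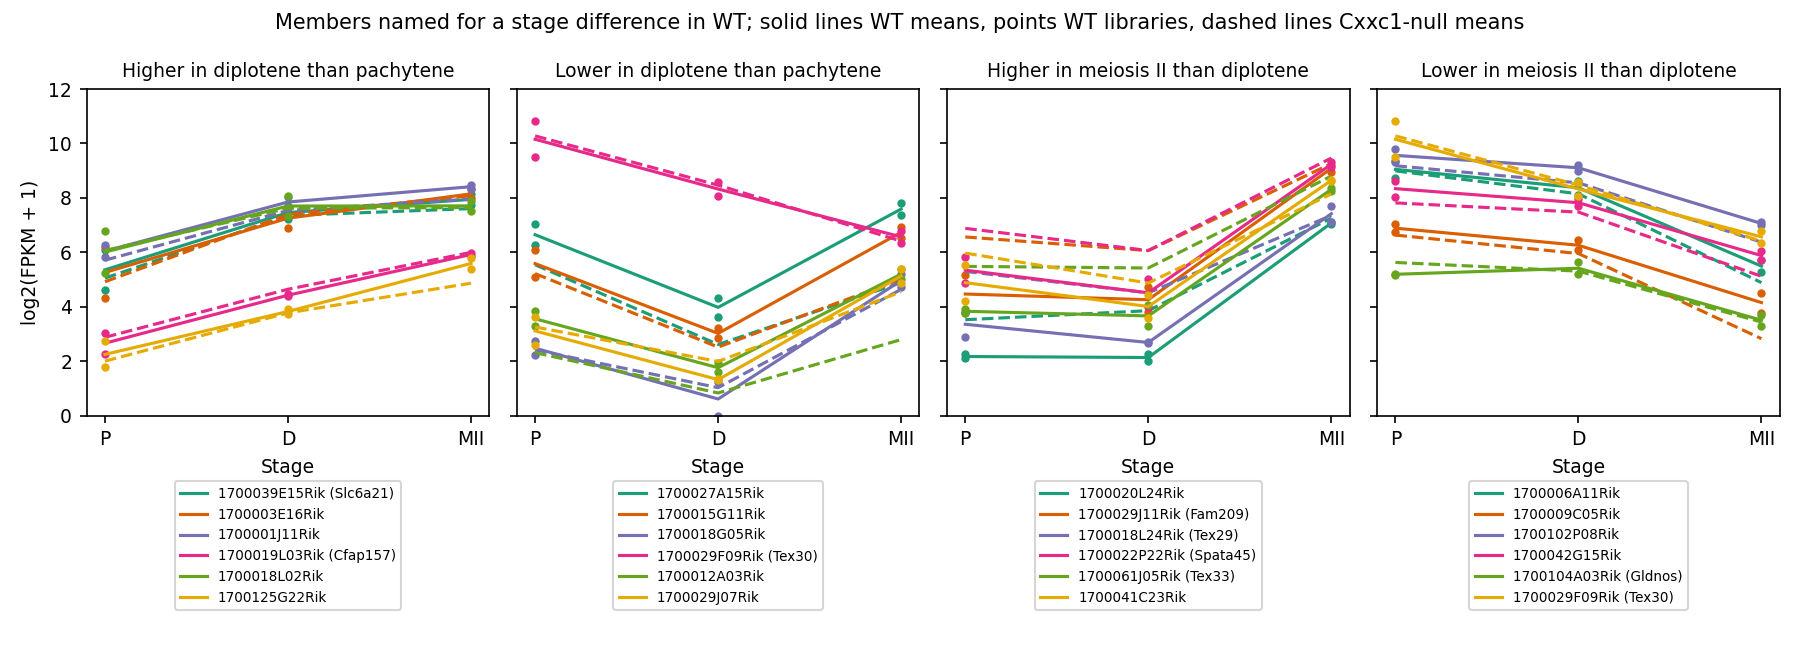
Level as log2(FPKM + 1) at pachytene (P), diplotene (D) and meiosis II (MII) for up to 6 members named in each direction of the 2 stage steps in WT; solid lines join WT means, points are WT libraries and dashed lines join Cxxc1-null means. The risers of the second step climb by log2 4.63 to 4.94 in WT, and 5 of the 6 that fell from pachytene to diplotene come back in meiosis II, while Tex30 falls at both steps.

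From diplotene to meiosis II most members rose. In WT, 227 of 368 rose (61.7%) and 27 fell (7.34%), where 45% of all genes were called, 26.1% higher and 18.9% lower. The median difference was log2 1.83 over members and 0.02 over all genes. In Cxxc1-null, 213 rose and 28 fell, where 44.1% of all genes were called, 25.3% higher and 18.8% lower, and the medians were 1.38 and -0.01. The counts of 254 and 241 in both directions together were 225 to 261 and 170 to 245 when any 1 library was left out. Setting libraries to a common median moved the median of all genes to -0.28 in WT and -0.12 in Cxxc1-null, and that of the members to 1.54 and 1.27. In meiosis II, 274 members had their highest WT mean (74.5%, against 42% of all genes). The 368 include 15 members that met the filter through meiosis II libraries alone, and those had to be high there.

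The other RIKEN testis clone series gave counts of the same order. Of its 506 genes that met the filter, 294 rose and 47 fell in WT (58.1% and 9.29%), while of 711 genes with other Rik names 110 rose and 161 fell. By course, 200 members (54.3%) did not pass the first test and rose at the second, against 21.5% of all genes, 10 rose at both, and 87 passed neither. Sertoli marker sums were also higher in meiosis II, at 246 and 324 FPKM against 8.09 and 9.48 in WT diplotene, with 7 of 7 tested markers higher. Their part in these counts was not tested either.

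**Figure D3:**
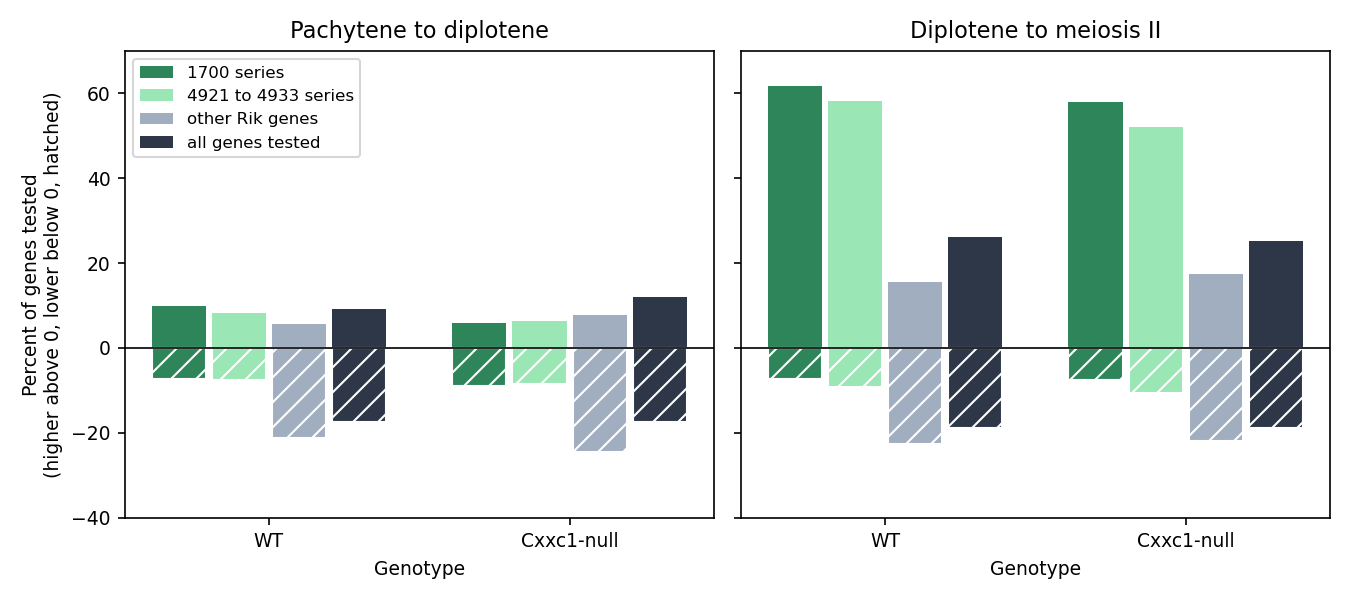
Percent of genes that rose (above 0) or fell (below 0, hatched) at each stage step by the limma test, for the 1700 genes, the other testis clone series, other Rik genes and all genes tested, in WT and Cxxc1-null. The 1700 bars reach 61.7% in WT and 57.9% in Cxxc1-null at the step to meiosis II, against 26.1% and 25.3% of all genes.

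The 6 with the largest rise in WT were 1700020L24Rik, Fam209 (1700029J11Rik), Tex29 (1700018L24Rik), Spata45 (1700022P22Rik), Tex33 (1700061J05Rik) and the lncRNA 1700041C23Rik. In 1700020L24Rik the WT diplotene libraries measured 3.04 and 3.82 FPKM and the meiosis II libraries 131 and 137, a rise of log2 4.94 ± 0.39 (limma adjusted p = 2.02e-05). Fam209 went from 13 and 25.4 to 593 and 496 FPKM (4.82 ± 0.65), and Spata45 from 14.9 and 31.9 to 564 and 643 (4.72 ± 0.64). The meiosis II libraries were far above the diplotene libraries in every case, and all 6 calls held with each library left out. In Cxxc1-null the same 6 rose by log2 2.84 to 3.40, and in each Cxxc1-null diplotene replicate 2 stood well above replicate 1, as in Fam209 (131 against 33 FPKM) and Tex33 (86.5 against 20.2).

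The renamed members are grouped here by name, and their counts are read against the 61.7% of all members that rose in WT and the 57.9% in Cxxc1-null. Of 5 genes now named Spata, Spatc or Spaca, for spermatogenesis- or sperm-associated proteins, all 5 rose in both genotypes. Spata46 (1700015E13Rik) went from 17.9 and 26.0 FPKM in WT diplotene to 471 and 506 in meiosis II, a rise of log2 4.44 ± 0.54. Of 9 Tex genes, named for expression in testis, 8 rose and Tex30 fell. Llcfc1 (1700034O15Rik), a sperm protein needed for fusion with the egg in mice, went from 11.8 and 23.0 to 331 and 382 FPKM (4.35 ± 0.63, limma adjusted p = 0.00032). Of 7 Fam genes 6 rose in WT, and Fam229b did not pass. Of 6 Ccdc genes, named for a coiled-coil domain, 4 rose in WT and 1 fell. Of 14 genes named as lying on the opposite strand of another gene, 7 rose and 3 fell, with a median of log2 0.68.

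Of 4 genes for histone H2A or H2B variants, all 4 rose in WT, where 61.7% of all members did. Levels of 2 of the 4 were not far above the 1 FPKM of the filter. H2bl1 (1700024P04Rik) measured 10.7 and 26.7 FPKM in WT diplotene and 327 and 397 in meiosis II (log2 4.32 ± 0.71), and the X-linked H2ap (1700054O13Rik) 2.03 and 8.12, then 75.0 and 100.4 (4.06 ± 0.72). The other two, H2al1m and H2bfm, measured at most 2.46 FPKM in any library, and the call of H2bfm was lost without WT diplotene replicate 1 or WT meiosis II replicate 2 (limma adjusted p up to 0.0709). Variants of this kind replace standard histones in spermatids before protamines are loaded.

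Of 7 Cfap genes, named for cilia and flagella, 4 rose from diplotene to meiosis II in WT, where 61.7% of all members and 26.1% of all genes did. From pachytene to diplotene 3 of them rose, where 9.78% of all members and 9.08% of all genes did. Cfap126 (1700009P17Rik) went from 114 and 121 FPKM to 269 and 248 at the second step (log2 1.13 ± 0.19), and Cfap206 (1700003M02Rik) from 98.7 and 154 to 390 and 228 at the first (1.27 ± 0.40, limma adjusted p = 0.0409). The Cfap206 call was lost without WT pachytene replicate 1 or any 1 of the WT diplotene and meiosis II libraries (limma adjusted p up to 0.227). Ift43 (1700019E19Rik), a subunit of the intraflagellar transport complex A, lay between 375 and 677 FPKM in all 12 libraries and passed no test. Tsacc (1700021C14Rik), a cochaperone that activates the testis kinase TSSK6, lay between 480 and 1094 FPKM and passed none.

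Members that fell into meiosis II include a gene of meiotic prophase. Majin (1700123I01Rik), which ties telomeres to the nuclear envelope, measured 52.0 and 48.1 FPKM in WT pachytene, 27.2 and 23.9 in diplotene and 10 and 9.01 in meiosis II. It fell at both steps, by log2 0.95 ± 0.20 and 1.33 ± 0.20 (limma adjusted p = 0.0092 and 0.00045), and the first call was lost without WT diplotene replicate 2 (0.0676). The largest fall was that of the protein-coding 1700006A11Rik, from 396 and 276 FPKM in diplotene to 51.7 and 37.6 (log2 -2.88 ± 0.27, limma adjusted p = 3.67e-05). The lncRNA 1700009C05Rik fell from 86.2 and 66.6 to 22.0 and 12.8 (-2.11 ± 0.25), and 1700102P08Rik, which overlaps the recombination gene Iho1, from 593 and 511 to 137 and 129 (-2.04 ± 0.21). Falls of 1700042G15Rik and Gldnos (1700104A03Rik) were log2 -1.94 and -1.91. Diplotene and meiosis II did not overlap in any of these 6 genes, and these calls of a fall into meiosis II held with each library left out.

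Tex30 is a highly expressed member that fell at both steps. It measured 1801 and 719 FPKM in WT pachytene, 381 and 269 in diplotene and 109 and 81.1 in meiosis II, with Cxxc1-null at 1232 and 1250, 397 and 314, and 78.3 and 91.0. WT and Cxxc1-null overlapped at all 3 stages, and both steps passed in both genotypes. The promoters below are those of Tex30 and of 3 genes that rose from diplotene to meiosis II. They are single examples and cannot show whether CpG content goes with the stage course. CpGs are marked because the CXXC1 protein binds that dinucleotide, and its binding was not measured here. Each line gives the 250 bases before the RefSeq start on the gene's own strand (build GRCm38.p6), with every CpG in capitals. Tex30 lies on the minus strand at chr1:44102442-44102691, Fam209 on the plus strand at chr2:172472304-172472553, Tex33 on the minus strand at chr15:78395913-78396162 and 1700041C23Rik on the plus strand at chr9:57175025-57175274.
Tex30: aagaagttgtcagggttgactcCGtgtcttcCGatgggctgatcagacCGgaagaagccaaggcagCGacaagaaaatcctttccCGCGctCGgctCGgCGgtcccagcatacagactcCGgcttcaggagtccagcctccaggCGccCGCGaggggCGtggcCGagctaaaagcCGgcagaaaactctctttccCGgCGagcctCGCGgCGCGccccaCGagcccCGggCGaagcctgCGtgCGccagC
Fam209: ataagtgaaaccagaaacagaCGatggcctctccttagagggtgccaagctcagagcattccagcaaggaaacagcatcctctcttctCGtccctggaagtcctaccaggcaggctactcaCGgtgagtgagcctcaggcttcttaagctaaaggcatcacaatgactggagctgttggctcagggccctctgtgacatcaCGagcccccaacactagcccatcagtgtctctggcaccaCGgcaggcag
Tex33: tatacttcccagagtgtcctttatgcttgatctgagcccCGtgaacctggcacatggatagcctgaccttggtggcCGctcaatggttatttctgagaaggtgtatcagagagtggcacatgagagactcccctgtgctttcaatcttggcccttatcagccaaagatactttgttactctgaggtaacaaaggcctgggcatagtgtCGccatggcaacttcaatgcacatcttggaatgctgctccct
1700041C23Rik: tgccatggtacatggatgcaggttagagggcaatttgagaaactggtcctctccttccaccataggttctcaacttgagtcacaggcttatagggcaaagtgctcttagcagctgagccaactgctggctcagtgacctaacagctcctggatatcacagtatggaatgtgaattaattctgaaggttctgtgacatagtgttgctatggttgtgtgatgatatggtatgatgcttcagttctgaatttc

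The Tex30 window holds 27 CpGs, that of Fam209 5, that of Tex33 3 and that of 1700041C23Rik 0. The last base of the Tex30 window is a C whose G is the first base of the transcript. Among the 227 members that rose from diplotene to meiosis II in WT, 183 (80.6%) have a window of 300 bases in the RefSeq table. Their median observed-to-expected CpG ratio was 0.21, and 10.4% exceeded 0.6. For the members as a whole and for those that fell or did not pass, under 80% have a window (79.1%, 70.4% and 78.1%). The same holds for the other tested genes and for those of them that rose (78.9% and 79%). Genes without a window are missing from such values, so CpG content is not compared with any of these groups here. The windows printed above are single examples and stand for no group. The palindrome TGACGTCA, searched on both strands, was found in 1 of the risers' 183 windows (0.546%). Of all 27025 RefSeq promoter windows, 1 per gene, 1.88% held it. Other motifs searched were TGACG (15.8% of the risers' windows against 21%), AACTG (54.1% against 44.8%), GTTGCC (21.9% against 12.7%) and CACGCG (1.64% against 9.36%). The RefSeq windows include genes that were not tested here, and no difference in motifs was tested.

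On the X chromosome all 14 members rose from diplotene to meiosis II in WT, by log2 1.07 to 4.35. Of all 407 X-linked genes tested 365 rose (89.7%), so the count among members is read against that share. Among the 351 autosomal members 211 rose (60.1%), against 23.9% of all autosomal genes. Protein-coding members rose in 109 of 166 cases and lncRNA members in 112 of 187, with median differences of log2 2.40 and 1.59. Members that overlap another gene had a median of log2 1.05 and those that overlap none 2.44.

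The genotypes were compared at each stage. Within pachytene and within diplotene few members passed. In pachytene 2 were higher and 1 lower in Cxxc1-null, where 0.355% of all genes were called, 0.34% higher and 0.0154% lower. In diplotene 1 was higher and 1 lower, where 0.787% were called, 0.702% higher and 0.0849% lower. At an unadjusted p under 0.05 the numbers were 89 and 77 (24.2% and 20.9%, against 10.7% and 13.5% of all genes). The pachytene difference leaned upward over the members, with 275 of 368 positive (74.7%) and a median of log2 0.40, against 0.04 over all genes. Without WT pachytene replicate 2 that median was 0.25, against 0.09. The other RIKEN testis clone series leaned the same way in pachytene, with 70.8% of its 506 genes positive and a median of log2 0.27. The members' median in diplotene was 0.18, against 0.09 over all genes, and 1 library set its sign. It was -0.01 without Cxxc1-null diplotene replicate 2, with 47.8% of members positive, and 0.37 without replicate 1. After setting libraries to a common median it was 0.04, against -0.04 over all genes. The pachytene count was 1 without WT pachytene replicate 2 and 11 or 12 without Cxxc1-null diplotene replicate 1 or 2, and it was 0 without any 1 of the other libraries. The diplotene count was 57 without Cxxc1-null diplotene replicate 1, 0 without any 1 of the other 3 diplotene libraries, 2 without WT pachytene replicate 2 and 1 without any 1 of the rest. Both counts were 0 in fits to the libraries of each stage alone.

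The members higher in Cxxc1-null pachytene were 1700101I11Rik, an lncRNA that overlaps the autophagy gene Gabarapl1, and 1700024F13Rik. In 1700101I11Rik WT measured 19.6 and 23.5 FPKM and Cxxc1-null 62.9 and 48.2 (log2 1.32 ± 0.22, limma adjusted p = 0.0458), and in 1700024F13Rik the values were 0 and 0.519 against 3 and 2.54 (1.61 ± 0.28, limma adjusted p = 0.0491). Genotypes did not overlap in either, and both calls were lost without any 1 library other than those of Cxxc1-null diplotene (limma adjusted p up to 0.274).

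**Figure D4:**
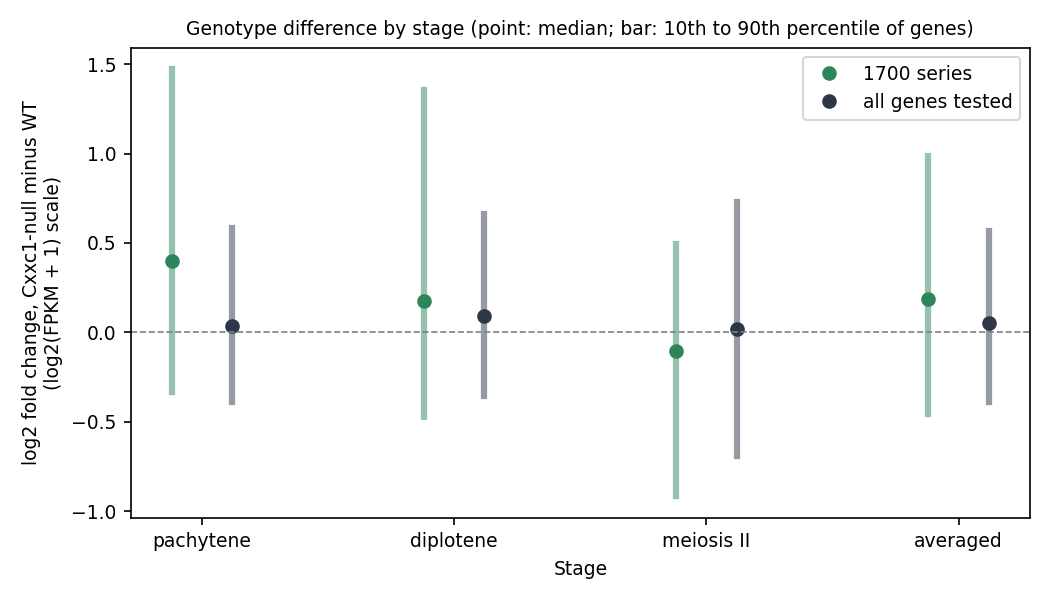
Log2 difference between Cxxc1-null and WT at each stage and averaged over stages; points are medians over genes and bars span the 10th to 90th percentiles, for the 368 members and for all genes tested. The members' median is 0.40 in pachytene, 0.18 in diplotene and -0.10 in meiosis II, and that of all genes lies between 0.02 and 0.09. The diplotene median is -0.01 without Cxxc1-null diplotene replicate 2 and the meiosis II median 0.12 without Cxxc1-null meiosis II replicate 1.

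In meiosis II more members were lower than higher in Cxxc1-null. Of 368, 22 were lower and 5 higher (5.98% and 1.36%), where 10.5% of all genes were called, 4.35% lower and 6.14% higher. In the other RIKEN testis clone series 31 of 506 were lower and 15 higher (6.13% and 2.96%). The median was log2 -0.10 over members and 0.02 over all genes, but its sign depended on 1 library. It was 0.12 without Cxxc1-null meiosis II replicate 1, with 59.6% of members positive, and -0.35 without replicate 2, with 23%. More members were called lower than higher with any 1 of the 4 meiosis II libraries left out. The spermatid marker sum was lower in Cxxc1-null meiosis II as well, at 3099 and 6408 FPKM against 8831 and 11961 in WT, with 0 of 12 markers passing and a median of log2 -0.39, and the meiotic division list summed to 556 and 757 FPKM against 923 and 1091, with Cdc20 and Espl1 lower of 6. Their part in the members' difference was not tested. Each meiosis II library carried much of this count: it was 7 or 10 without WT replicate 1 or 2 and 8 without either Cxxc1-null replicate. It was 6 in a fit to the 4 meiosis II libraries alone.

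The largest drop was in 1700027A15Rik, with 166 and 222 FPKM in WT meiosis II and 20.7 and 39.5 in Cxxc1-null (log2 -2.70 ± 0.61, limma adjusted p = 0.0223). Its Cxxc1-null libraries were below both WT libraries in meiosis II and in pachytene, and the genotypes overlapped in diplotene. Its call was lost without any 1 of the 4 meiosis II libraries (limma adjusted p up to 0.122). In 1700012A03Rik, a protein-coding gene on chromosome 6, WT measured 31.8 and 40.5 and Cxxc1-null 4.4 and 7.97 FPKM (-2.41 ± 0.33, limma adjusted p = 0.00307), and this call held with each library left out. Nudt16l2 (1700080E11Rik), which bears the name of a Nudix hydrolase family, was at 19.1 and 17.1 against 2.19 and 4.55 (-2.18 ± 0.45), and its call was lost without either WT meiosis II replicate or Cxxc1-null replicate 1 (limma adjusted p up to 0.0975). Differences of 1700029B22Rik and 1700020A23Rik were log2 -2.00 ± 0.55 and -1.85 ± 0.50 (limma adjusted p = 0.0465 and 0.0445), with values of 21.4 and 19.5 against 2.54 and 7.13 FPKM and of 17.5 and 20.7 against 2.46 and 7.91. The call of 1700029B22Rik held without WT pachytene replicate 1 or 2 and was lost without any other library. That of 1700020A23Rik was lost without any 1 pachytene library, either WT meiosis II replicate or Cxxc1-null meiosis II replicate 1. The highest limma adjusted p was 0.227 for both, without the last of these libraries.

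A protein of motile cilia was among the 22. Of the 7 Cfap genes it alone passed between genotypes in meiosis II, and the median of the 7 was log2 0.08. Cfap161 (1700026D08Rik) measured 278 and 254 FPKM in WT meiosis II against 129 and 141 in Cxxc1-null (log2 -0.97 ± 0.26, limma adjusted p = 0.041). Actl10 (1700007I08Rik), an actin-like gene, measured 31.1 and 25.9 against 10.6 and 10.5 FPKM (-1.35 ± 0.20, limma adjusted p = 0.0037), a call that held with each library left out. That of Cfap161 was lost without any 1 diplotene or meiosis II library (limma adjusted p up to 0.195). Both calls were lost in a fit to the 4 meiosis II libraries alone. Neither gene's genotypes overlapped in meiosis II. In diplotene Cfap161 stood at 219 and 166 against 122 and 124 FPKM, while Actl10 measured at most 1.14 FPKM in all 4 libraries.

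Those higher in Cxxc1-null meiosis II were mostly low. Of the 5, 1700063A18Rik (0.470 and 0 FPKM in WT, 1.37 and 3.66 in Cxxc1-null) and 1700049E15Rik (0.500 and 0.373 against 1.16 and 1.00) met the filter through Cxxc1-null libraries alone, so they had to differ. The X-linked lncRNA 1700111N16Rik, which overlaps 1700020N15Rik, measured 1.39 and 1.51 FPKM in WT and 2.85 and 5.85 in Cxxc1-null (log2 1.07 ± 0.25). For 1700096K18Rik the values were 12.5 and 12.3 against 20.6 and 27.5 FPKM (0.89 ± 0.22). Calls of both were lost without either WT meiosis II library or without Cxxc1-null replicate 2, and that of 1700096K18Rik also without Cxxc1-null replicate 1 (limma adjusted p up to 0.16 and 0.212). The call of 1700063A18Rik was lost without either WT meiosis II library (0.14), and that of 1700049E15Rik was lost without any 1 library but WT pachytene replicate 1 or 2 (0.17). Without either Cxxc1-null meiosis II library both genes missed the filter and had no test.

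Averaged over the 3 stages, 47 members were higher and 28 lower in Cxxc1-null, where 16.7% of all genes were called, 11.5% higher and 5.13% lower. The shares of members were 12.8% and 7.61%, and those of the other RIKEN testis clone series 14.4% and 7.71%. Lying on the same side at all 3 stages with no overlap were 23 of 368 members above and 17 below. Of all 12956 genes 1067 were above and 507 below (8.24% and 3.91%), so the members' share above was smaller than that of all genes. The count of 75 was 41 or 36 without Cxxc1-null pachytene replicate 1 or 2, 36 or 44 without WT diplotene replicate 1 or 2, 42 or 38 without WT meiosis II replicate 1 or 2 and 40 without Cxxc1-null meiosis II replicate 2. Which direction held more calls depended on single libraries too. There were 27 higher and 30 lower without WT pachytene replicate 2, 16 and 24 without Cxxc1-null meiosis II replicate 2, and 90 and 21 without Cxxc1-null diplotene replicate 1. Without both libraries that stand apart from their replicates the numbers were 23 and 29. The labels leave unsaid if the 3 stages of a replicate number share a mouse. With same-numbered libraries joined to 1 mean per genotype, 16 of the 75 passed.

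The smallest adjusted p over stages belonged to 1700010B08Rik, a protein-coding gene on chromosome 2 and the 5th highest of the members in WT diplotene. It measured 826 and 657 FPKM in WT pachytene against 262 and 331 in Cxxc1-null, 1062 and 1066 against 367 and 344 in diplotene, and 691 and 776 against 289 and 320 in meiosis II. All 6 Cxxc1-null libraries lay below all 6 WT libraries. The averaged difference was log2 -1.39 ± 0.12 (limma adjusted p = 0.000139), and stage differences of -1.32 ± 0.20, -1.58 ± 0.20 and -1.26 ± 0.20 passed as well (0.0372, 0.0112 and 0.005). In fits to the libraries of each stage alone the pachytene, diplotene and meiosis II calls were lost. The averaged and meiosis II calls held with each library left out. The pachytene call was lost in 9 of 12 such fits (adjusted p up to 0.233, without Cxxc1-null pachytene replicate 1), and the diplotene call without either WT diplotene library or Cxxc1-null diplotene replicate 2 (up to 0.136).

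The 250 bases before its RefSeq start, on the plus strand at chr2:173719165-173719414 (GRCm38.p6), are shown because of a repeat they hold. Capitals mark ATTGG, the reverse complement of CCAAT.
1700010B08Rik: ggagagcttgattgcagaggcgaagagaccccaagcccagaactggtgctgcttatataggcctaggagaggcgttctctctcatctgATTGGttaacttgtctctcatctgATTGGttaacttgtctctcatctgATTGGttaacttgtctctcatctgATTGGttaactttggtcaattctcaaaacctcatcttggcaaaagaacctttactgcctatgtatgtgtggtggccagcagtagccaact

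The pentamer occurs 4 times, each start 24 bases after the last. With both strands searched in windows of 300 bases, 37.9% of 27025 promoters hold CCAAT at least once and 1.14% at least 4 times. This motif was chosen after the sequence was seen. The window holds 2 CpGs.

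Other members that were lower at every stage were less abundant. The lncRNA 1700096J18Rik measured 2.40 and 4.83 FPKM in WT pachytene against 1.20 and 0, 1.71 and 2.91 against 0.263 and 0.562 in diplotene, and 14.9 and 7.48 against 1.11 and 1.28 in meiosis II (averaged log2 difference -1.73 ± 0.25, limma adjusted p = 0.0021). For 1700012A03Rik the averaged difference was -1.53 ± 0.19 and for the lncRNA 1700009J07Rik -1.12 ± 0.17 (limma adjusted p = 0.0011 and 0.0029). That of 1700052K11Rik, which overlaps Tlk2, was -0.97 ± 0.13 with 16.1 and 18.3 FPKM against 9.43 and 11.1 in pachytene. All 4 averaged calls held with each library left out, and that of 1700052K11Rik was lost with stages joined. In meiosis II alone 1700096J18Rik differed by log2 -2.41 ± 0.43, a call lost without WT replicate 1 or either Cxxc1-null replicate (limma adjusted p up to 0.0676).

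Smaller averaged differences were found in 1700018A04Rik, 1700009C05Rik and 1700030K09Rik, at log2 -0.67, -0.63 and -0.63. The first was lost without Cxxc1-null pachytene replicate 2, WT diplotene replicate 2 or WT meiosis II replicate 2 (limma adjusted p up to 0.0631) and the second without WT diplotene replicate 1 (0.0543). The third was lost without Cxxc1-null pachytene replicate 2, WT meiosis II replicate 1 or Cxxc1-null meiosis II replicate 2 (0.0582). All 3 were also lost with stages joined.

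Of those that were higher at every stage, 1700045I19Rik differed most. It measured 1.12 and 0.816 FPKM in WT pachytene against 5.05 and 5.18 in Cxxc1-null, 0 and 0.804 against 2.54 and 5.13 in diplotene, and 10.5 and 10.8 against 33.9 and 41.5 in meiosis II. Genotypes did not overlap at any stage, and the averaged difference was log2 1.72 ± 0.19 (limma adjusted p = 0.000601). The diplotene and meiosis II differences passed alone (log2 1.79 ± 0.33 and 1.72 ± 0.33). The diplotene call was lost in 10 of 12 fits without 1 library (limma adjusted p up to 0.277), and that of meiosis II without either WT meiosis II replicate or Cxxc1-null replicate 2 (0.0864). This symbol was not found in RefSeq.

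Others that were higher at every stage include a gene named for spermatogenesis and the centriole. Spatc1l (1700027D21Rik) measured 4.97 and 6.14 FPKM in WT pachytene against 15.6 and 14.9 in Cxxc1-null, 3.98 and 8.79 against 12.4 and 33.6 in diplotene, and 143 and 156 against 229 and 275 in meiosis II (averaged log2 difference 1.23 ± 0.24, limma adjusted p = 0.0092). Every Cxxc1-null library lay above the WT libraries of its stage. Averaged differences were log2 1.61 ± 0.31 for 1700001F09Rik, 1.58 ± 0.35 for 1700007K13Rik, which overlaps Mrps2, and 1.38 ± 0.23 for the X-linked 1700013H16Rik. The lncRNA 1700110K17Rik, which overlaps Gramd1b, was higher by log2 1.24 ± 0.18, with 21.2 and 26.2 against 74.4 and 53.6 FPKM in pachytene and 41.1 and 40.7 against 80.3 and 87.6 in meiosis II. These 5 calls, and that of 1700045I19Rik, held with each library left out and with stages joined.

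Calls of 2 more did not hold throughout. The averaged differences were log2 1.31 ± 0.33 for 1700027F09Rik and 1.30 ± 0.32 for Tex33. Each was lost in 5 of 12 fits with a library left out, both of them without Cxxc1-null pachytene replicate 2, WT diplotene replicate 1 or Cxxc1-null meiosis II replicate 2. The first was also lost without WT pachytene replicate 2 or WT meiosis II replicate 2, and the second without Cxxc1-null pachytene replicate 1 or WT meiosis II replicate 1 (limma adjusted p up to 0.0747 and 0.0642). Beside these calls, the spermatid list had 3 of 12 markers higher and 1 lower over stages (Prm2, Acrv1, Spaca1 and Spaca3 were called), and its part was not tested.

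**Figure D5:**
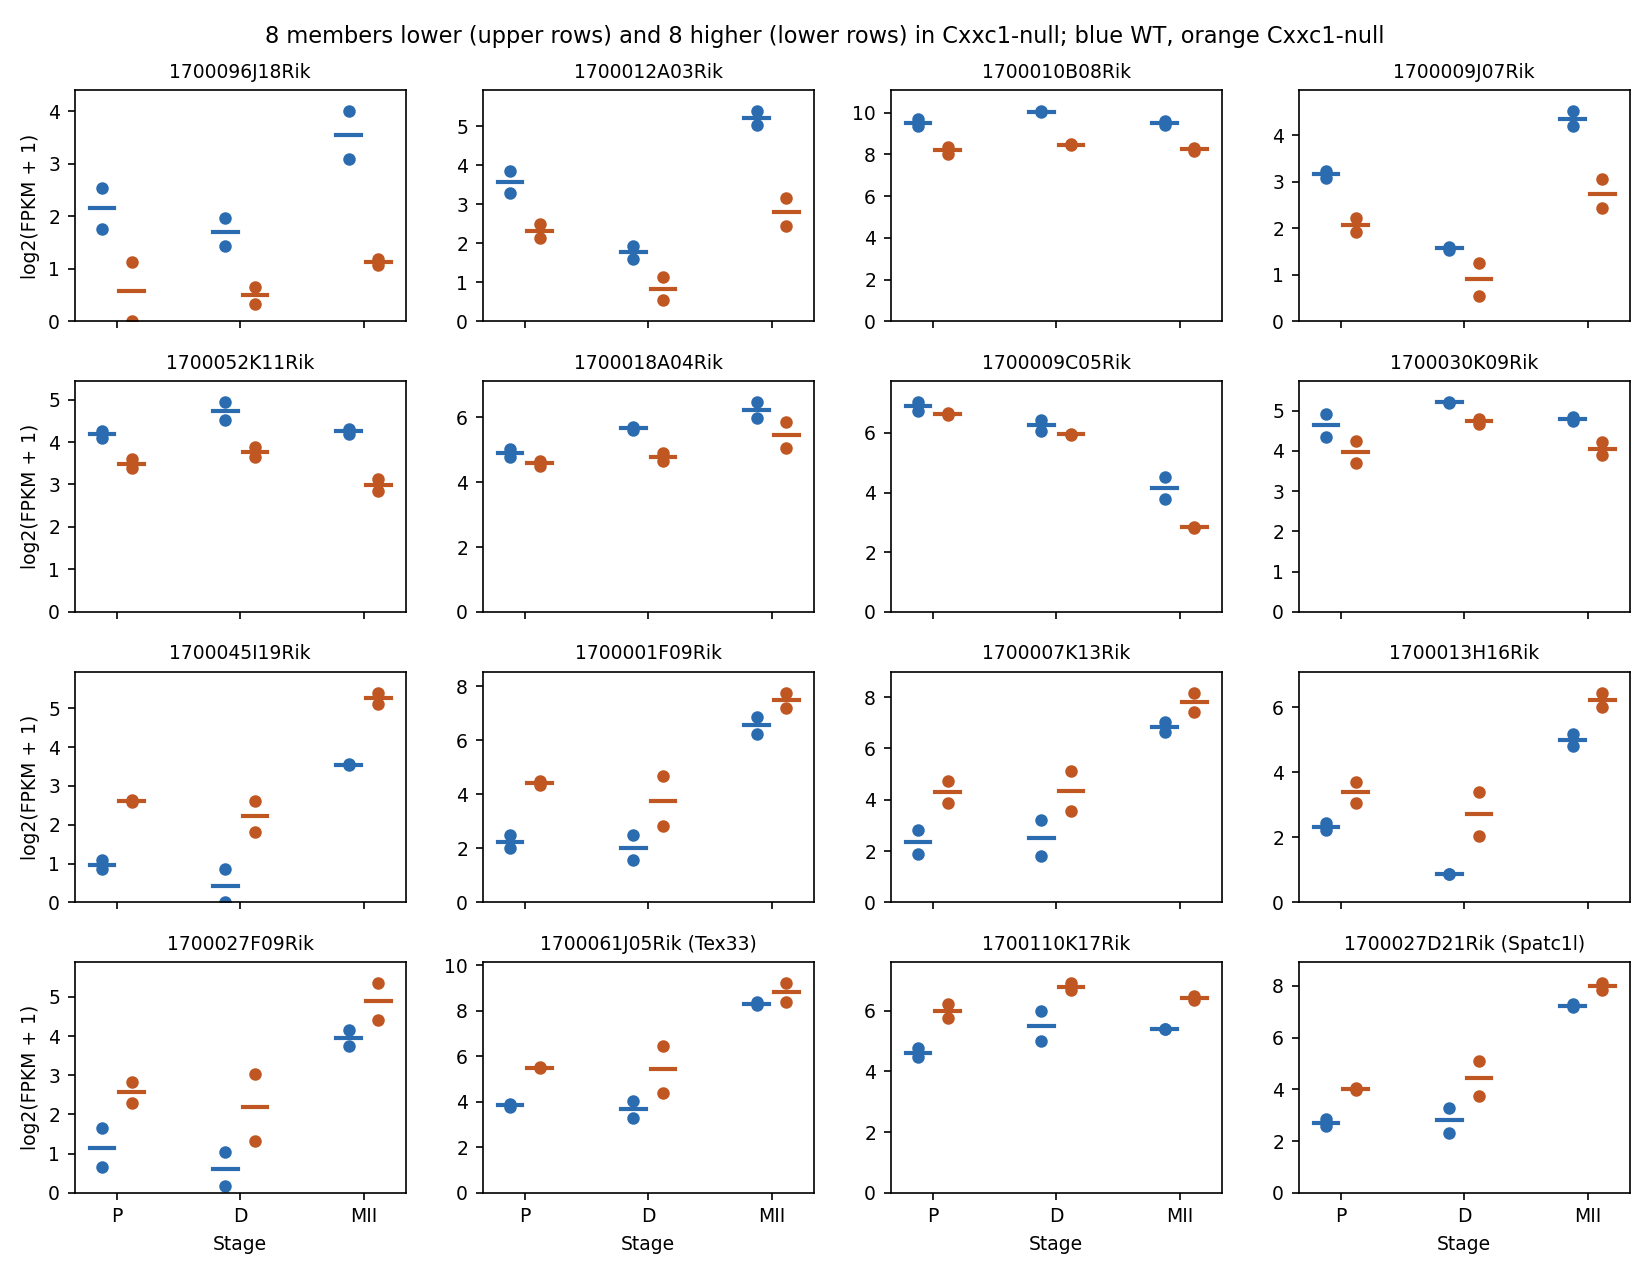
Level as log2(FPKM + 1) in every library at pachytene (P), diplotene (D) and meiosis II (MII) of the 8 members lower and the 8 higher in Cxxc1-null at all 3 stages with the largest averaged difference; points are libraries and bars the mean of 2. In no panel do the genotypes overlap within a stage, with averaged differences from log2 -1.73 to 1.72.

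By chromosome, 6 of the 14 X-linked members were higher over stages (42.9%, against 41.8% of all X-linked genes tested) and none lower. Among autosomal members 40 of 351 were higher (11.4%, against 10.5% of all autosomal genes) and 28 lower (7.98%, against 5.27%). Protein-coding members were higher in 25 and lower in 12 of 166 cases and lncRNA members in 20 and 16 of 187, and no difference between these groups was tested.

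Whether the genotype difference itself changed with stage was tested with an F test of the interaction over both stage steps. It passed for 0 of 368 members with limma at an adjusted p under 0.05, where 0.054% of all genes passed, and 30 members had an unadjusted p under 0.05 (8.15%, against 8.77% of all genes). The smallest p belonged to the lncRNA 1700034G24Rik (limma adjusted p = 0.153). It measured 6.10 and 7.11 FPKM in WT meiosis II against 1.15 and 1.32 in Cxxc1-null, and at most 1.62 in every earlier library. Actl10 came next (limma adjusted p = 0.153), then 1700048M11Rik, 1700049E15Rik and 1700071K01Rik (limma adjusted p = 0.215, 0.241 and 0.282).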

How the data were processed

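RNA was measured in 12 libraries of sorted spermatocytes, 2 in each of 6 groups assigned from the sample titles. The authors deposited 1 table of FPKM values for 23235 genes. Per the submitters' processing notes TopHat2 2.1.1, Cufflinks 2.2.1 and the mm9 build were used, and their roles are not given in the sources used here. Read numbers are not given there either, so the depth is unknown and no interval that needs it is printed. From the deposited FPKM values log2(FPKM + 1) was computed, and the 12956 genes that reached 1 FPKM in 2 or more libraries were modelled together, each group with its own mean (limma 3.58.1, R 4.3.3, trended empirical Bayes, 6 residual degrees of freedom). P-values were adjusted over all genes by Benjamini-Hochberg at 0.05. Fold changes are on this scale, which understates low genes, with standard errors after ±. A difference is called where its adjusted p passes.

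Members and lists were chosen with earlier results of these data known. Named genes are, in each comparison, the members with the largest differences among those that passed with no overlap between the groups (up to 6 in each direction, 8 for the average over stages, at all 3 stages), the 5 highest per WT stage, the 5 smallest interaction p-values, the 3 nearest each side of the threshold, and renamed genes, of which those printed were chosen after their values were seen. Names, biotypes and sequences are from RefSeq (GRCm38.p6), which is not the build of the table, so positions are given for the printed sequences only, and the first listed window of a gene was used. Another pseudocount, filter, scaling and fit, a replicate block and leaving out libraries were tried.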

Additional observations from a re-analysis of the deposited data

How the results depend on the processing

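Counts below are of members past the threshold, in the order Cxxc1-null minus WT in pachytene (3), diplotene (2), meiosis II (27) and averaged (75), then diplotene minus pachytene in WT (63) and Cxxc1-null (55). The counts from diplotene to meiosis II stayed within 1.5 times under every setting run. A pseudocount of 0.1 gave 8 in diplotene and 11 in meiosis II, and a filter of 5 FPKM gave 17 in meiosis II. With no filter the counts were 0, 1, 20, 38, 38 and 27, and the interaction F test passed for 2. Quantile normalization gave 1 in diplotene, and a common median gave 1 in pachytene and 1 in diplotene. Without WT pachytene replicate 2 and Cxxc1-null diplotene replicate 2, the libraries that earlier results placed apart from their replicates, the counts were 0, 0, 35, 52, 94 and 116. Fits to the libraries of each comparison alone gave 0 in pachytene, 0 in diplotene, 6 in meiosis II and 0 from pachytene to diplotene in WT. Joining stages gave 16 for the average. With 1 library left out at a time, where the lone library of a group is assumed to vary like the others, the counts ran from 0 to 12, 0 to 57, 7 to 33, 36 to 111, 22 to 70 and 8 to 86, from 225 to 261 and 170 to 245 for the step from diplotene to meiosis II, both directions together, in WT and Cxxc1-null, and the interaction passed for 0 in all of them. The share of calls that were higher was 62.7% for the average, 53.3% under quantile normalization, 47.4% with no filter, 44.2% without both libraries that stand apart and 40% to 81.1% with 1 library left out. For the WT step from pachytene to diplotene it was 57.1%, and 69.1% under quantile normalization, 80% under a common median, 33% without both libraries and 47.8% to 73.1% with 1 left out. For that of Cxxc1-null it was 40%, and 55.6% under a common median, 13.8% without both and 11.6% to 57.9% with 1 left out. Replicate numbers are shared between groups, but deviations of same-numbered WT and Cxxc1-null libraries correlated at -0.07, 0.32 and 0.11 over genes at the 3 stages, and those of the same genotype at different stages at 0.12 to 0.42. Each comparison has 2 such numbers and no label says what a number marks, so the numbers were not taken as pairs. A replicate block gave 2, 4, 35, 93, 79 and 73. Of 78 named values under 1540 other settings in all, 1306 kept direction and side of the threshold and 232 fell short of it. The interaction F test over both stage steps passed for Actl10 with no filter, where its term from diplotene to meiosis II was -1.67. The same term of 1700049E15Rik, -0.07, turned to 0.12 under a common median. The cause of these changes was not tested.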
